A study of Mus musculus with 4 samples.

Results

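The interferon-stimulated genes described here are 39 genes that cells switch on when they sense type I or type II interferon, and they were chosen by name as the antiviral and regulatory interferon targets outside the large families of interferon-induced GTPases. The choice was made with earlier results of these data known. Of the 39 listed genes 37 had a row on the array, out of 20735 genes with a row, and all 37 were found by the gene name in the files. No row was found for Usp18, which removes ISG15 from proteins, or for Socs1, a feedback inhibitor of cytokine receptors. Mx1 and Mx2 are themselves dynamin-like GTPases and were kept because the list holds them. The 37 genes had 62 rows, and each gene was represented by its row with the highest mean log2 intensity over the 4 arrays.

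Total RNA labelled as that of CD4+ T cells from the spleens of FVB/N mice was hybridised to 4 single-colour (Cy3) expression arrays, 1 for each group. The groups were wild type naive cells, miR-7 deficient naive cells, wild type cells labelled activated and miR-7 deficient cells labelled activated. Naive cells were CD4+ with high CD62L, a receptor for entry into lymph nodes, and were taken with magnetic beads, while activation is given as 48 hours in culture with antibodies to CD3 and CD28 and with IL-2. Per the labels a sample stands for 3 biological replicates, yet 1 array per group was analysed, so each difference below is between a pair of arrays, has no replicate check and carries no p-value. How miR-7, a microRNA, was made deficient is not stated in the sources used here. The number of arrays limits the precision.

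Interferons bind receptors at the cell surface and activate the JAK kinases, which phosphorylate STAT proteins. Under type I interferon STAT proteins join IRF9 in a complex that binds interferon-stimulated response elements in promoters, and under interferon gamma STAT dimers bind gamma-activated sites. The induced genes encode sensors of foreign nucleic acid, proteins that block viral replication, factors that amplify the response and inhibitors that end it. In T cells interferon modulates survival and differentiation, and part of the program is also kept at a low tonic level in unstimulated lymphocytes.

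The promoters of 4 members are shown because these members lay above background on a naive array, were higher under miR-7 deficiency in naive cells and hold the letters of the response element. They are the RefSeq windows of 300 bases, from 250 before to 50 after the gene's start, in the build GRCm38.p6, whose strain is C57BL/6J and not FVB/N. The sequences are written 5′ to 3′ on the strand of the gene, and capitals mark each match to the response element, searched as 2 GAAA blocks separated by any 2 bases, or to its reverse complement. The windows lie at chr4:156200769-156201068 (minus strand) for Isg15, chr19:34583279-34583578 (plus strand) for Ifit3, chr19:34640639-34640938 (plus strand) for Ifit1 and chr10:128270248-128270547 (plus strand) for Stat2.
Isg15: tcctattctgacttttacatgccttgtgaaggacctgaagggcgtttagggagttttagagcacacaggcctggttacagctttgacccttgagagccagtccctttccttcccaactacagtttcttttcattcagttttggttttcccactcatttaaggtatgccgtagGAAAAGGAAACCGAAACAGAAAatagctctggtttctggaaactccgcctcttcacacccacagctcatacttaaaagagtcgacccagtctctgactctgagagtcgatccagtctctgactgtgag
Ifit3: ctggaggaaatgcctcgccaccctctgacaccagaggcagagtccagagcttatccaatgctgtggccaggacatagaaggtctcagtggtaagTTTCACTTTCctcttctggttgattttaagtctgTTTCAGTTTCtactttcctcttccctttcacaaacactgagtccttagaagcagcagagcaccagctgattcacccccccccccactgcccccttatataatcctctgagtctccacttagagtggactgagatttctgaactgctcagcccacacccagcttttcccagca
Ifit1: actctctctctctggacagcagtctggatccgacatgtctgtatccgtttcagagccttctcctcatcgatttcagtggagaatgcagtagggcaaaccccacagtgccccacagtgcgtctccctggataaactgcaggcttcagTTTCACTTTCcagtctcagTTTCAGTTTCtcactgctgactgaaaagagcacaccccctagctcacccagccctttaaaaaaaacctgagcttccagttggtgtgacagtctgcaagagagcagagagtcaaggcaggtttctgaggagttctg
Stat2: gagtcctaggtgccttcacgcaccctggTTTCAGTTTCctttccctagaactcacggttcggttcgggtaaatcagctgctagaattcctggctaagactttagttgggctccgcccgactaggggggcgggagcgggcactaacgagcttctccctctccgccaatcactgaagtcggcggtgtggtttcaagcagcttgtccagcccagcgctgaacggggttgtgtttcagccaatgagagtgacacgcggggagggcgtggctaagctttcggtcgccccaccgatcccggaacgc

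In the Isg15 window 3 matches on the gene's strand overlap in a single run, the first starting 78 bases before the gene's start. The Ifit3 and Ifit1 windows hold 2 separate matches each on the opposite strand, and in both windows the match nearer the start reads TTTCAGTTTC. The Stat2 window holds 1 match, which starts 222 bases before the gene's start and has the same letters. Promoter windows were found for 30 of the 39 members; no entry was found for Dhx58, Zbp1, Oas2, Mx1, Mx2, Rtp4, Usp18, Parp9 and Parp14. Searched on both strands, the response element was present in 13 of the 30 (43.3%) and in 1079 of all 27025 genes with a window (3.99%). The shorter gamma-activated site TTCNNNGAA was present in 10 of the 30 (33.3%) and in 2582 of all genes (9.55%), and 3 members, Eif2ak2, Oas1a and Bst2, held both. Matches of the 2 motifs overlapped in 1 member window and in 24 of all windows. Among members 2-fold or more higher under miR-7 deficiency in naive cells and with a window, 4 of 15 held the response element (26.7%) against 8 of the 14 other measured members (57.1%), and the corresponding counts for the gamma-activated site were 3 (20%) and 7 (50%). A match describes the letters of the window and is not a measured binding site.

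All intensities below are the deposited normalized values on a linear scale, and differences are in log2 units, so that a difference of 1 is 2-fold. Where 4 intensities are given for a gene they stand in the order wild type naive, miR-7 deficient naive, wild type labelled activated and miR-7 deficient labelled activated. A background floor was set on each array as the 95th percentile over 667 rows of chemosensory receptors (smell, pheromone, trace amine and taste), taken here as genes that lymphocytes do not use. In the same order of arrays it lay at 984, 985, 720 and 604, and 2849, 3057, 4608 and 5352 genes exceeded it. A difference with 1 side below the floor was counted from the floor and is written as "at least", and a gene was counted as apart when it was above the floor on at least 1 of both arrays and differed by 2-fold or more.

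Most T cell markers exceeded the floor on the naive arrays, and few did on the activated-labelled arrays. Of 15 T cell markers 10, 12, 2 and 2 exceeded the floor, and the intensities of the list summed to 27898, 31449, 5701 and 8370. Cd4 itself read 971, 1412, 469 and 396, above the floor in miR-7 deficient naive cells alone. Transcripts of other blood cells on the naive arrays are given below. Nrgn, a calmodulin-binding protein of neurons, read 92.0, 126, 15125 and 22284. Markers of oligodendrocytes summed to 2781, 2285, 62919 and 50759, and those of astrocytes to 6654, 5527, 20860 and 18337. In both genotypes 9 of 9 oligodendrocyte markers and 6 of 8 astrocyte markers read higher on the array labelled activated, and 2 astrocyte markers lower. Across rows the naive arrays correlated at r = 0.90 and the activated-labelled arrays at 0.923, while a naive array and an array labelled activated correlated at 0.723 to 0.750. In bulk RNA, fewer cells of a type and less RNA per cell cannot be told apart.

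Of the 37 measured genes 3, 12, 3 and 5 exceeded the floor, in that order of arrays. Their median intensity was 331, 760, 280 and 183, while the median of all genes was 246 to 248 on each array. Adar and Rtp4 were above the floor on all 4 arrays, 11 further members on 1 to 3 arrays, and 24 on none. The miR-7 deficient naive array was thus the highest of the 4 for the set as a whole, as the plot of the members on the 4 arrays shows.

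**Figure D1:**
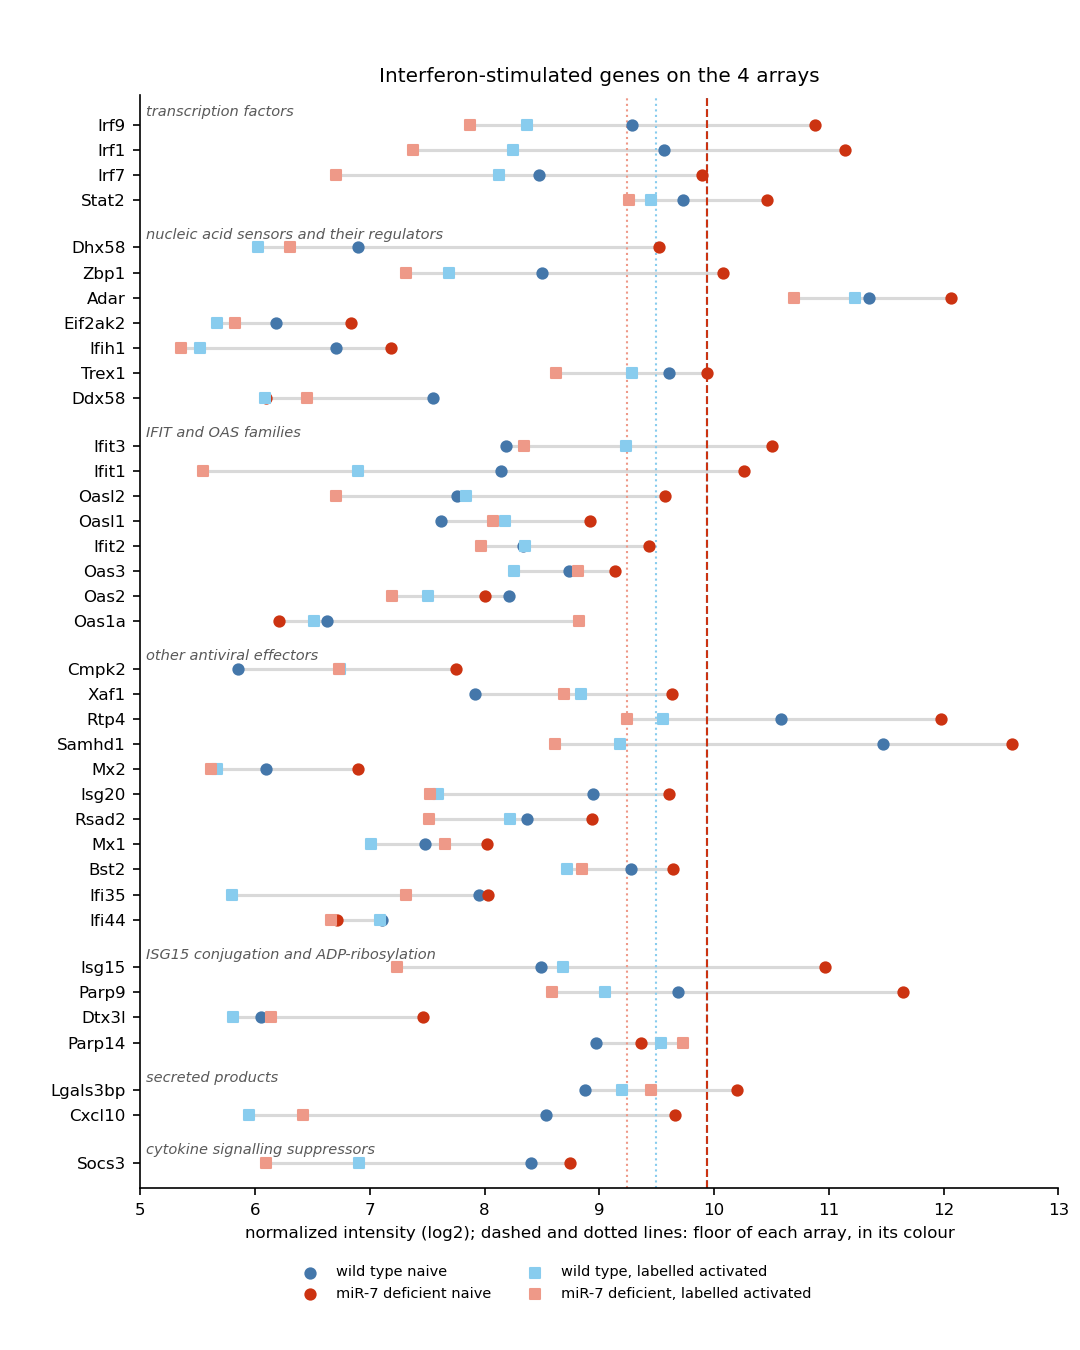
Normalized intensity (log2, horizontal axis) of the 37 measured interferon-stimulated genes on the 4 arrays, 1 array per group, ordered by role and within a role by the naive genotype difference. Vertical lines are the floors of the arrays, of which both naive floors coincide at 9.94; most red circles, the miR-7 deficient naive array, lie to the right of the other 3 symbols of their gene.

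Between naive cells of both genotypes, 33 of the 37 genes had a higher intensity in the miR-7 deficient array (background 52.3% of all 20735 genes) and 4 a lower intensity (background 47.7%). With no floor, 19 of the 37 were 2-fold or more higher (background 8.27%) and 1, Ddx58, was 2-fold or more lower (background 8.47%). The median log2 difference of the 37 was 1.09, a ratio of 2.13, against 0.04 for all genes. Among all genes ranked by this difference, 16 of the 37 lay in the top 5% and 19 in the top 10%, and 4 lay below the median gene. This list and the other gene lists below were chosen with earlier results of these data known. Their shares beside the background therefore describe the lists and are no independent support for a difference. The 4 genes that were lower were Ddx58, Oas1a, Oas2 and Ifi44, and none of them was above the floor on any array.

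With the floor applied, 12 members entered the naive comparison. Of these, 5 were 2-fold or more higher (background 2.02%) and 0 were lower (background 0.809%), the 5 being Parp9, Rtp4, Irf1, Samhd1 and Isg15. For 9 of the 12 the wild type value lay below the floor, which fixed their direction, and nothing is read from the sign of those members. The 3 members above both naive floors were Rtp4, Samhd1 and Adar, and these were higher by 1.40, 1.12 and 0.71. The other rows of Adar, given below, did not share its difference. With no replicate, the nearest measure of spread is that between rows of the same gene: over 396 genes with several rows above the floor, the naive differences of their rows had a pooled SD of 0.34, which is a spread within arrays, not between replicates. The counts by role that follow describe deposited intensities with no floor, and stand beside 52.3% of all genes and 40.7% of the receptor genes that read higher in the same way.

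The 4 transcription factors of the response all had higher deposited intensities in miR-7 deficient naive cells, with every wild type value below the floor. Irf1, induced by both interferon types and itself an activator of interferon targets, read 758, 2259, 303 and 166. Irf9, a DNA-binding subunit of the complex at response elements, read 623, 1883, 331 and 234. Both genes were above the floor in miR-7 deficient naive cells and on no other array, so their naive differences were at least 2.30-fold for Irf1 and at least 1.91-fold for Irf9. Stat2, a further subunit of that complex, read 850, 1412, 700 and 612, at least 1.44-fold higher under miR-7 deficiency in naive cells. Irf7, the factor that amplifies type I interferon production, stayed below the floor on all 4 arrays with 355, 954, 280 and 104. Its second row, at 273 and 938 on the naive arrays, differed in the same direction. For Irf1 and Irf9 3 rows each were present, of which 2 were higher in both genes and the row left over, below both naive floors, was lower by 0.40 and 0.67.

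Among sensors of foreign nucleic acid and their regulators, 6 of 7 were higher under miR-7 deficiency in naive cells and 1 was lower. Zbp1, a sensor of left-handed nucleic acid that can trigger necroptosis, read 362, 1082, 207 and 159 and was above the floor in miR-7 deficient naive cells alone, a difference of at least 1.10-fold. Adar, which edits adenosine to inosine in double-stranded RNA and so hides self RNA from the sensors, read 2608, 4271, 2403 and 1659. It was above the floor on all 4 arrays, the naive difference being 0.71, a ratio of 1.64. The other rows of Adar, below both naive floors, were at 0.13 and -0.45. The other 5 members of this group lay below the floor throughout. Dhx58 (LGP2), which modulates the RNA helicase sensors, had the largest naive difference of all 37 genes, with intensities of 119, 736, 65.2 and 78.9. That of 2.63 was not shared by its second row, which read 81.1 and 104.

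The helicase sensors themselves split. Ddx58 (RIG-I) read 187 in wild type against 68.4 in miR-7 deficient naive cells, a difference of -1.45. Its 3 rows disagreed, at -1.45, -2.56 and 1.24, and all lay below the floor. Ifih1 (MDA5) read 104 and 145. Eif2ak2, the kinase PKR that stops translation on binding double-stranded RNA, read 72.7 and 114, and Trex1, a DNA exonuclease that clears cytosolic DNA, read 778 and 978, just below the miR-7 deficient floor of 985. These genes, like other members below the floor on all arrays, are measured in a range where the background receptor genes spread as well: with no floor, 7.75% of 619 receptor genes were 2-fold or more higher and 13.6% lower in the naive comparison, with a median of -0.22.

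In the families that bind or sense viral RNA, the 3 IFIT genes were higher and the OAS genes were mixed. Ifit3, a partner of IFIT1 in binding foreign 5′ ends of RNA, read 292, 1453, 601 and 325. Ifit1, which holds RNA lacking the self cap, read 282, 1223, 119 and 46.8. For both genes only the miR-7 deficient naive array was above the floor, so that the difference was at least 1.48-fold for Ifit3 and at least 1.24-fold for Ifit1, while the intensities as deposited stood at ratios of 4.97 and 4.34. Ifit2 read 323 and 689, below the floor on all arrays. Ifit3 has a close copy in the mouse genome, and its row cannot be told apart from that copy here.

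The oligoadenylate synthetases (OAS) make the second messenger that activates RNase L. None of the 5 measured members of the OAS family, counted here with the OAS-like genes Oasl1 and Oasl2, exceeded the floor on any array. Oasl2, an OAS-like protein, read 217 in wild type against 760 in miR-7 deficient naive cells, a difference of 1.81 and the third largest among members below the floor throughout. Oasl1, which limits translation of Irf7, read 197 and 483, but its second row read 614 and 161, the opposite direction. Oas3 read 425 and 563 and Oas2 297 and 257. Oas1a, which belongs to a cluster of similar Oas1 genes that can share signal, read 98.5 and 73.7, and both of its rows were lower.

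Samhd1 and Rtp4 were the 2 other antiviral effectors above the floor in both naive groups. Samhd1, which depletes the nucleotides that reverse transcription needs, read 2844, 6192, 581 and 391, the last 2 below their floors. Of its 5 rows 4 were higher under miR-7 deficiency in naive cells, by 1.06 to 1.34, including all 3 rows above both naive floors, and the row with the lowest values, 162 and 73.5, was lower by 1.14. Rtp4, an interferon-induced protein with antiviral activity, read 1533, 4040, 752 and 605. It was above the floor on every array, and its naive difference of 1.40 is a ratio of 2.63.

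Of the other 9 effectors, all below the floor on all 4 arrays, 8 were higher under miR-7 deficiency in naive cells and Ifi44 was lower, at 138 against 105. Cmpk2, a mitochondrial nucleotide kinase that lies beside Rsad2 in the genome, read 57.7 and 215, a difference of 1.90. Rsad2 (viperin), which makes a chain-terminating nucleotide, read 331 and 490, and its second row differed in the same direction. Xaf1, a pro-apoptotic interferon target, read 241 and 795. Bst2 (tetherin), which holds budding virus at the cell surface, had 3 rows, each higher under miR-7 deficiency in naive cells, by 0.37, 0.62 and 2.17. Isg20, an RNA exonuclease, likewise had 3 rows that were all higher, by 0.66, 0.73 and 2.74. The GTPases Mx1 and Mx2 read 179 and 260, and 68.4 and 119. Without these 2 genes the median over the remaining 35 was 1.12, with 31 higher and 4 lower. Ifi35 read 247 and 261, the smallest naive difference of the 37 at 0.08.

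The ubiquitin-like modifier Isg15 and Parp9, of the ADP-ribosylation genes, were above the floor in miR-7 deficient naive cells alone. Isg15, which is attached to proteins and is also secreted, read 359, 1996, 412 and 151. The miR-7 deficient naive array was at least 2.03-fold above wild type, and the intensities as deposited stood at a ratio of 5.56. The second Isg15 row read 141 and 1142, a difference of 3.02, and was likewise above the floor in miR-7 deficient naive cells alone. Parp9, which acts with the ubiquitin ligase DTX3L, read 823, 3203, 529 and 385, at least 3.26-fold higher under miR-7 deficiency in naive cells. Its partner Dtx3l, whose gene lies beside Parp9, read 66.2 and 176, below the floor. Parp14, an ADP-ribosyltransferase of macrophages and lymphocytes, read 502, 659, 741 and 848, below the floor on the naive arrays and above it on the activated-labelled pair.

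Of the secreted products, Lgals3bp, a glycoprotein that binds galectins, read 468, 1177, 587 and 698, above the floor in both miR-7 deficient groups alone and at least 1.20-fold higher under miR-7 deficiency in naive cells. Cxcl10, the chemokine that attracts CXCR3-bearing T cells, stayed below the floor with 370, 809, 61.8 and 85.7. Socs3, a feedback inhibitor of cytokine receptors, read 339 and 429. Over all 24 members below the floor on every array, which read between 40.9 and 978, 20 were higher and 4 lower under miR-7 deficiency in naive cells, with differences from -1.45 to 2.63 and a median of 0.62.

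Rows that the choice of 1 row per gene left out gave the same direction more often than not. For 16 members with several rows, all rows shared a direction in 10, of which 9 were higher and 1, Oas1a, was lower, and rows disagreed in 6. The 25 rows not used to represent a gene had a median naive difference of 0.75, with 18 higher and 7 lower, and over all 62 rows 51 were higher with a median of 0.81. All 17 rows above a naive floor, from 12 genes, were higher, by 0.71 to 3.02, but for those above it in miR-7 deficient cells alone the sign was fixed. The plot of single rows shows that the rows that disagreed lay among those below both floors.

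**Figure D2:**
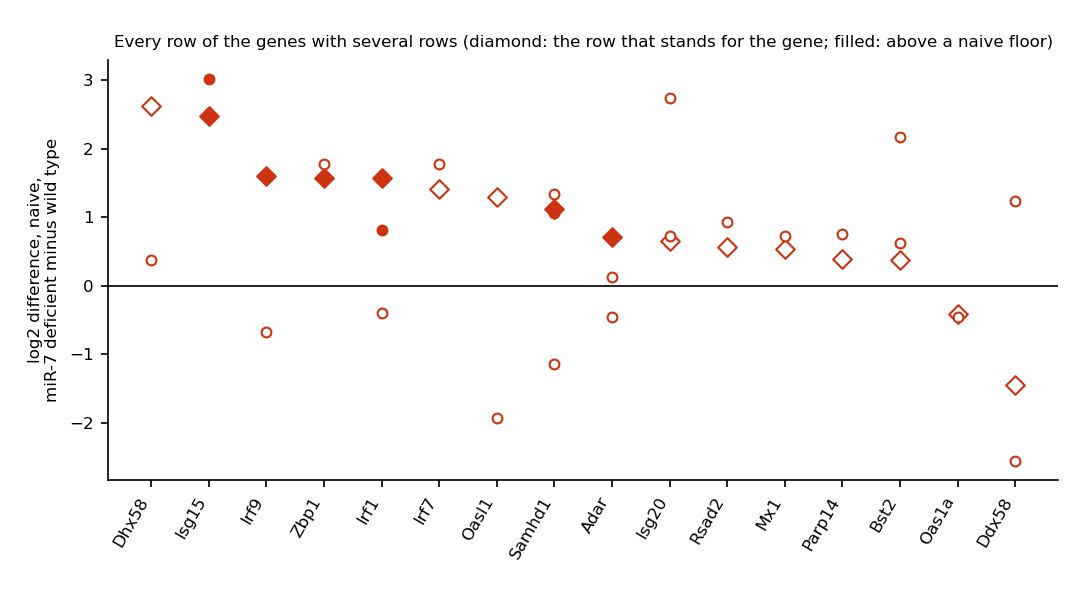
Naive log2 difference (miR-7 deficient minus wild type, vertical axis, no floor) of each row of the 16 interferon-stimulated genes with several rows. Filled symbols are rows above a naive floor. The rows lower in the miR-7 deficient array are all below both floors, among them those of Ddx58, Oasl1 and the fifth row of Samhd1.

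The direction of the members stayed the same under other scalings, while the count of 2-fold differences did not. Of all genes 2-fold apart in the naive comparison 71.4% were higher under miR-7 deficiency as deposited, 62.8% after centring on the median difference, 35.2% with an intensity trend taken out and 32.6% under quantile normalization of the 2 naive arrays alone. In each of these settings 33 of the 37 members were higher and 4 lower, with medians of 1.05, 0.94 and 0.91 for centring, trend removal and quantile normalization. In that order, members counted as 2-fold higher with the floor numbered 4, 3 and 3 of 12 (background 1.56%, 0.89% and 0.895%). After removal of the trend Samhd1 was at 0.94, and the bound for Isg15 fell to at least 0.90 and no longer reached 2-fold, while Parp9, Rtp4 and Irf1 remained. When the mean of all rows represented a gene, Parp9 and Rtp4 remained of the 5.

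**Figure D3:**
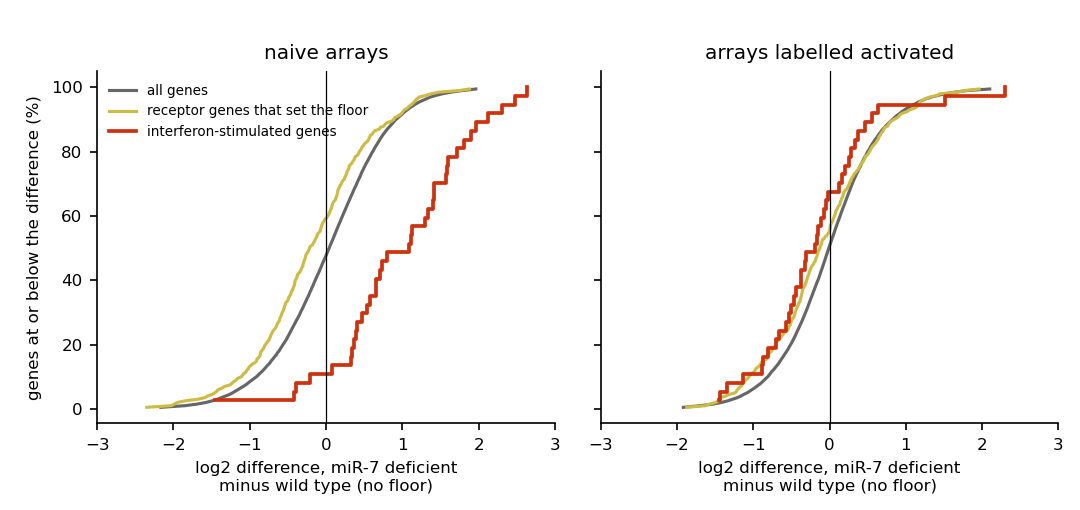
Cumulative share of genes (vertical axis) against the log2 difference, miR-7 deficient minus wild type with no floor (horizontal axis), for the 37 interferon-stimulated genes, all 20735 genes and the 619 background receptor genes, in the naive arrays and in the activated-labelled arrays. The member curve lies to the right of that of all genes in the naive arrays (medians 1.09 and 0.04) and slightly to its left in the activated-labelled arrays (medians -0.19 and -0.01).

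Upstream of these genes, the signalling chain was partly higher as well. Of 11 measured receptor, JAK and STAT genes, 10 were higher under miR-7 deficiency in naive cells and 1 lower, with a median of 0.49. Beside them, 52.3% of all genes were higher (median 0.04), as were 40.7% of the chemosensory receptor genes that set the floor (median -0.22). Jak1, a kinase of both receptor types, read 3092 and 6236, above the floor on both naive arrays and 1.01 higher under miR-7 deficiency. The receptor chains differed less, with Ifnar1, of the type I receptor, at 1083 and 1523, and Ifngr1, of the gamma receptor, at 1171 and 1142. Stat3, which serves other cytokines, read 3513 and 5285.

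Interferon genes themselves gave no such pattern. Of 15 measured ligand genes 4 were higher and 11 lower under miR-7 deficiency in naive cells, with a median of -0.49. This count and those that follow stand beside 52.3% of all genes and 40.7% of the chemosensory receptor genes higher. The only ligand above a floor was Ifna12, which read 1088 in wild type against 535, under the floor, in miR-7 deficient naive cells, and members of this family share much of their sequence. Ifng, the interferon gamma gene, lay below the floor at 197 and 88.8. Of 14 measured genes that lead to interferon production, 7 were higher and 7 lower, and the median was -0.05. Among them Trim25, a ligase that activates RIG-I, read 787 and 1846, while Tmem173 (STING), the adaptor of DNA sensing, read 1648 and 985. None of the 4 such genes above the floor was 2-fold apart, with Trim25, below the floor in wild type, higher by at least 0.91. Genes that restrain the signal had 8 of 10 members higher, with a median of 0.39 and 0 of 4 above the floor 2-fold apart. Irf2, a repressor at response elements, read 1109 and 1610, and Pias4, an inhibitor of STAT activity, read 27548 and 18499.

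A wider list of further interferon-induced genes was also higher, with a smaller median. Of 54 measured genes 39 were higher and 15 lower under miR-7 deficiency in naive cells, with a median of 0.59, beside 52.3% of all genes higher. With the floor, 24 entered, all above it under miR-7 deficiency and 15 of them above it in wild type. For the others the direction was fixed by the floor, and nothing is read from their sign. Of the 24, 4 were 2-fold or more higher (background 2.02%) and 0 lower (background 0.809%). Psme1 alone of the 4 exceeded both naive floors. These 4 were Ifi27l2a (705 against 2604), Psme1 (1256 against 3052), a regulator of the proteasome, Plac8 (761 against 2191) and Daxx (874 against 1991), a death domain and chromatin protein. Slfn1, a regulator of T cell quiescence, read 2060 and 3902, and Psmb8, an immunoproteasome subunit, read 1606 and 3137, both just under 2-fold. Other members differed little: Ifi203 read 2239 and 2270, Ifi27 2043 and 2125, and Ifitm3, which blocks viral entry, 1275 and 1183.

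**Figure D4:**
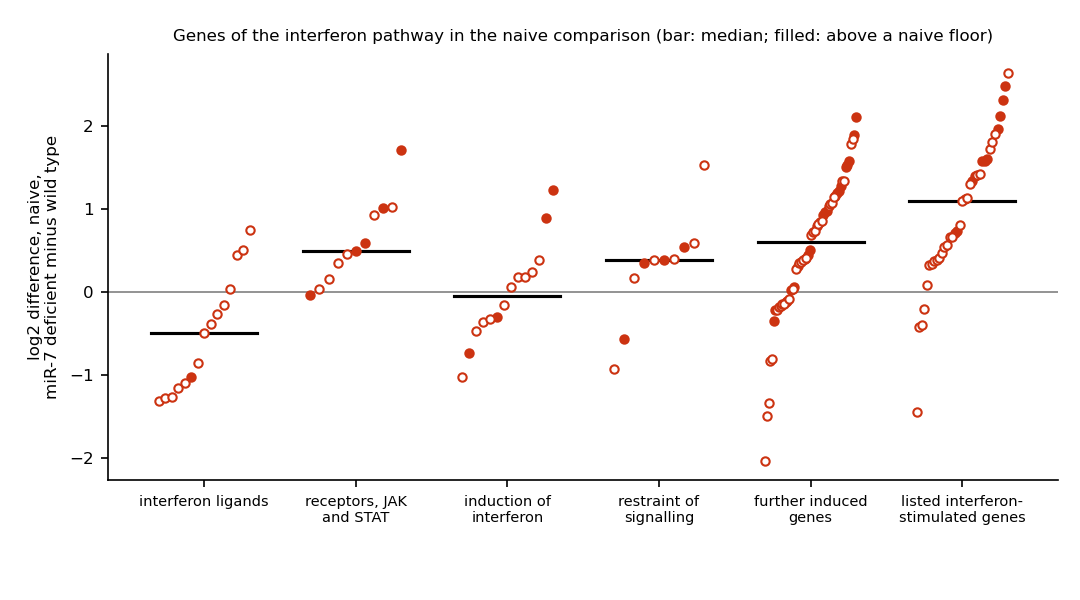
Naive log2 difference (miR-7 deficient minus wild type, no floor) of single genes in each step of the interferon pathway, with the listed interferon-stimulated genes last; filled symbols are genes above a naive floor and the bars are medians. The medians are -0.49 for ligands, -0.05 for induction of interferon, 0.49 for receptors, JAK and STAT, 0.39 for restraint, 0.59 for further induced genes and 1.09 for the listed genes.

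Transcripts of other blood cells differed between the naive arrays as well. The 10 measured B cell markers summed to 10749 in wild type against 17677 in miR-7 deficient cells, with 6 higher and 4 lower, and Ighm, the heavy chain of immunoglobulin M, read 5220 and 9703. The 7 neutrophil markers summed to 1926 and 5319, with 6 higher, and S100a9, a calcium-binding protein of neutrophils, read 804 and 2563. Myeloid and dendritic cell markers summed to 6105 and 7590 (8 of 12 higher), and those of cytotoxic T cells and NK cells to 4479 and 3554 (6 of 9 higher). Plasmacytoid dendritic cells, a main source of type I interferon, had 7 of 9 markers higher with sums of 2968 and 3993, and 0 and 1 of the 9 were above the floor. The marker above the floor was Irf8, at 707 and 1306, with the wild type value below it. Siglech, the defining marker of these cells and 1 of the 2 that were lower, read 273 and 249, below the floor. The T cell markers summed to 27898 and 31449, with 10 of 15 higher. All these counts of markers stand beside 52.3% of all genes higher. The part of these transcripts in the naive difference of the interferon-stimulated genes was not tested.

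Between the activated-labelled arrays, the interferon-stimulated genes showed no comparable difference. With the floor, 5 members entered (Adar, Rtp4, Stat2, Parp14 and Lgals3bp) and 0 were 2-fold higher (background 2.22%) or lower (background 2.38%). With no floor 12 were higher (background 49.4%) and 25 lower (background 50.6%) in the miR-7 deficient array, with a median of -0.19 against -0.01 for all genes; 2 were 2-fold or more higher (background 6.72%) and 4 lower (background 6.22%). The 2 higher genes were Oas1a (91.5 against 452) and Ifi35 (55.5 against 159), and the 4 lower were Isg15 (412 against 151), Irf7 (280 against 104), Ifit1 (119 against 46.8) and Oasl2 (229 against 104). All 6 lay below both floors. Of the 619 receptor genes that set the floor 344 were lower in this pair, with a median of -0.12. By 2-fold or more, 7.75% of them were higher and 11.5% lower. Rows disagreed here in 13 of the 16 members with several rows, among them Oas1a, whose second row read 173 and 72.3, and Irf7, whose second row read 74.1 and 116.

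For many of the genes the genotype difference had opposite signs in the 2 pairs. Of the 33 genes higher under miR-7 deficiency in naive cells, 23 were lower and 10 higher in the miR-7 deficient array labelled activated, and of the 19 that were 2-fold or more higher with no floor in the naive pair 15 were lower. By the same counts 52.6% of all genes higher in the naive pair were lower in the activated-labelled pair, as were 50.4% of those 2-fold or more higher, and among the receptor genes these shares were 59.9% and 58.3%. Most members lay below both floors in the activated-labelled pair. Adar, above the floor on all 4 arrays, was higher by 0.71 in the naive pair and at -0.53 in the pair labelled activated, and Rtp4 was at 1.40 and -0.31. Whether the genotype differences of the 2 pairs differ was not tested, since each pair has 1 array per group.

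**Figure D5:**
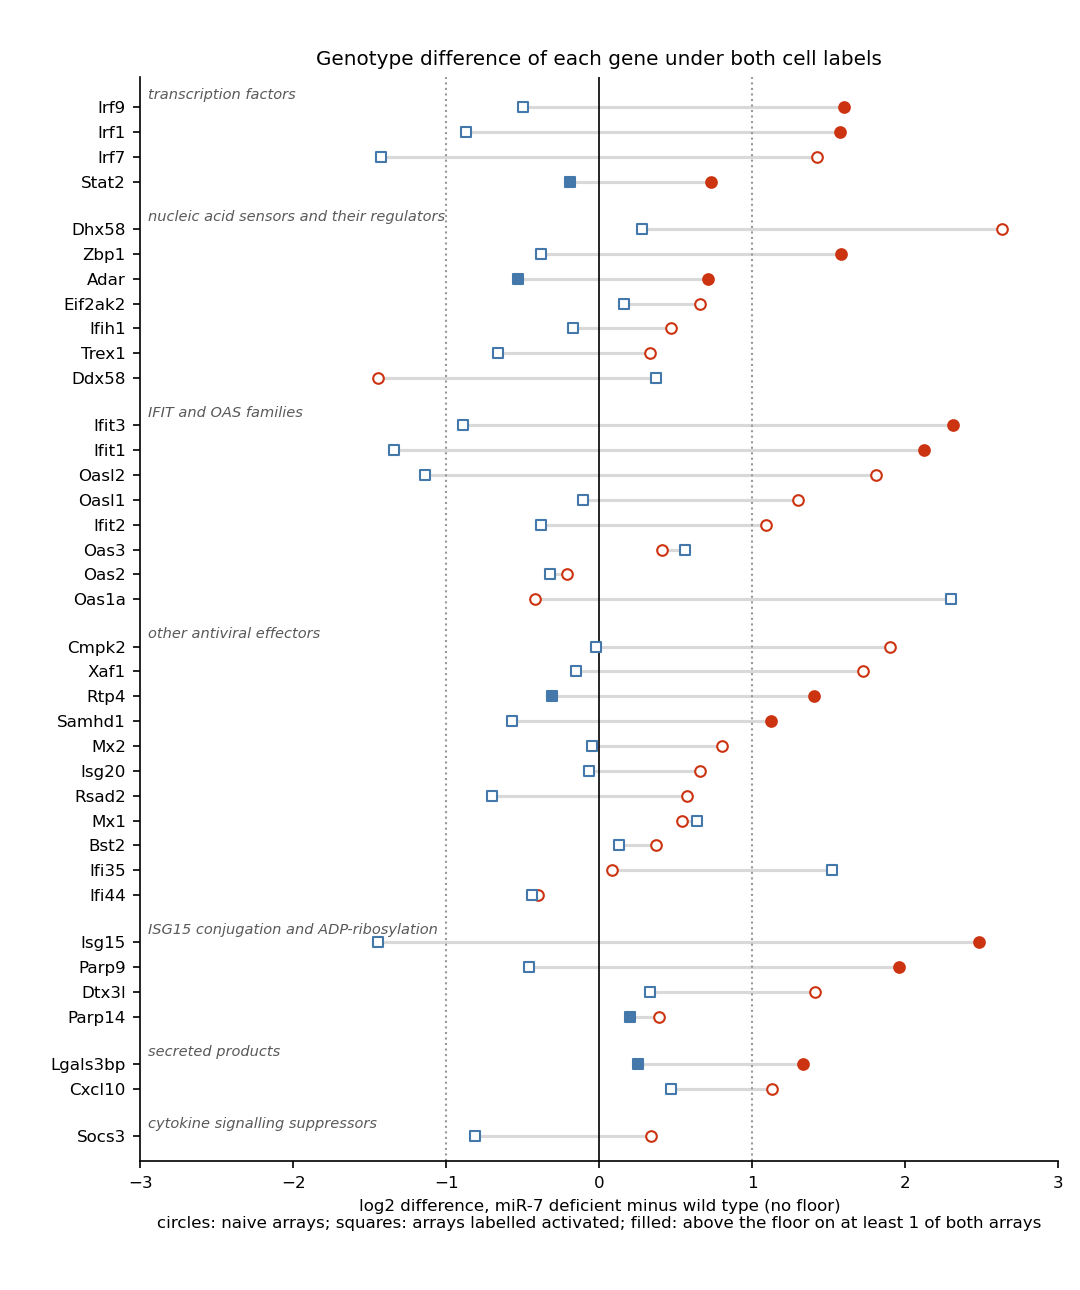
Log2 difference, miR-7 deficient minus wild type with no floor (horizontal axis), of each measured interferon-stimulated gene in the naive arrays (circles) and in the activated-labelled arrays (squares), ordered by role; filled symbols are above the floor on at least 1 of both arrays. The circles lie right of 0 for 33 of 37 genes and the squares left of 0 for 25.

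From naive cells to the array labelled activated, the interferon-stimulated genes of wild type mice read lower about as often as the background receptor genes, and those of miR-7 deficient mice more often. In wild type, 9 were higher (background 43.8%) and 28 lower (background 56.2%) with no floor, with a median of -0.47 against -0.17 for all genes; 1 was 2-fold or more higher (background 18.4%) and 10 lower (background 18.3%). The receptor genes gave much the same values in wild type, with 455 of 619 lower, 27.5% of the 619 lower by 2-fold or more and a median of -0.56. With the floor 4 members entered, 0 were 2-fold higher (background 14.5%) and 2 lower (background 8.81%), Samhd1 from 2844 to 581, which is below the floor, and Rtp4 from 1533 to 752. In miR-7 deficient mice 3 were higher (background 44.9%) and 34 lower (background 55.1%) with no floor, with a median of -1.36 against -0.13; 1 was 2-fold or more higher (background 16.6%) and 25 lower (background 18.1%). Here 439 of the 619 receptor genes were lower, with 25% of the 619 lower by 2-fold or more and a median of -0.42. With the floor 13 members entered, 0 were 2-fold higher (background 11.1%) and 10 lower (background 14.8%). For 8 of the 13 only the naive value lay above the floor, which fixed their direction, as it did for Samhd1 in wild type. Nothing is read from the sign of those members, and 4 of the 13 were above both floors. Both comparisons share their naive arrays with the naive genotype comparison, so they are not separate evidence of it.

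The 10 members lower in miR-7 deficient mice were Samhd1 (at least 10.3-fold), Rtp4 (6.67-fold), Parp9 (at least 5.30-fold), Irf1 (at least 3.74-fold), Isg15 (at least 3.31-fold), Irf9 (at least 3.12-fold), Adar (2.57-fold), Ifit3 (at least 2.41-fold), Stat2 (2.31-fold) and Ifit1 (at least 2.03-fold). Of the 3 others, Lgals3bp went from 1177 to 698 and Zbp1 from 1082 to 159, at least 1.79-fold lower, and Parp14 went from 659 to 848. In wild type the same 10 genes read lower on the array labelled activated in 8 cases, the exceptions being Ifit3 at 292 and 601 and Isg15 at 359 and 412, both below the floors. The split of all 2-fold differences depended on the scaling: higher genes made up 62.2% of them in wild type as deposited, 75.2% after centring and 36.9% when the pair was quantile-normalized on its own. In miR-7 deficient mice they made up 42.8%, 52.0% after centring, 53.1% after trend removal and 36.3% with the pair alone. As the activated-labelled arrays carry brain transcripts and few T cell transcripts, as given above, these differences hold for the arrays; the neuron markers summed to 2058, 2044, 38748 and 63772, and their part in the result was not tested.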

How the data were processed

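Total RNA was hybridised with Cy3 to 4 arrays, per the labels. The protocols given for growth and treatment are those of a bacterium and do not apply to these cells. The authors normalized the arrays with RMA, per the submitters' processing notes (version not given in the sources used here), and deposited linear intensities from 21.7 to 64873, although a file header calls them log2. The 8 deposited comparison tables supplied gene names only, and 16 per-sample columns matched to no sample were not used.

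Values were taken to log2. Of 35411 rows, 33663 name a gene, and 31529 matched RefSeq (GRCm38.p6) by gene number. The floor came from 667 receptor rows (619 genes). With values below the floor set to it, 2-fold differences were counted among genes above it on at least 1 array of the pair. No test was possible without replicates. Members, gene lists and the floor were chosen with earlier results of these data known. Members above a floor are given on all 4 arrays; of those below, the 3 differing most between the naive arrays are named by rule, and the rest after their values were seen. Of the pathway lists, genes above a naive floor, and of the marker lists the 3 brightest, may be named. Ifng, Siglech and Cd4 were named after their values were seen. Alternatives were centring, removal of a lowess trend (fraction 0.3), no floor, floors at percentiles 99 and 75, the mean of all rows, gene names without synonyms and quantile normalization of each pair alone. Not every gene allowed by this rule is reported here. Python 3.11.15, numpy 2.4.6, pandas 2.3.3, statsmodels 0.14.6 and matplotlib 3.10.9 were used.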

Additional observations from a re-analysis of the deposited data

Results flagged for a closer look

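The median genotype difference of the interferon-stimulated genes had opposite signs in the 2 pairs of arrays, at 1.09 in the naive pair and -0.19 in the pair labelled activated. In the pair labelled activated the receptor genes that set the floor lay close to the members, with a median of -0.12 and 344 of 619 lower. Those arrays carry brain transcripts and few T cell transcripts, as given above. With 1 array per group, the difference between the pairs was not tested. With no floor, 4 members differed by 2-fold or more in both pairs with opposite signs. The same count over all genes was not made, so nothing is read from this number. In the pair labelled activated, 6.22% of all genes and 11.5% of the receptor genes were 2-fold or more lower with no floor. Isg15 was at 2.48 and -1.45, Ifit1 at 2.12 and -1.34, Oasl2 at 1.81 and -1.14, and Irf7 at 1.42 and -1.43, naive pair first. On the activated-labelled arrays these 4 lay below both floors, and none counts as apart there by the floor rule. Oasl2 and Irf7 lay below both naive floors as well. In the activated-labelled pair the second Irf7 row was at 0.65 and the second Isg15 row at -0.35.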

How the results depend on the processing

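No paired analysis was possible because each group has 1 array. The medians of the 4 comparisons kept their direction in every alternative run, that of the naive genotype comparison lying between 0.80 (mean of all rows) and 1.12 (without Mx1 and Mx2). Counts moved with the floor. Members 2-fold or more higher in the naive genotype comparison numbered 5 of the 12 that entered (background 2.02%). They numbered 19 of 37 with no floor (8.27%), 16 of 26 with a floor at percentile 75 (3.7%) and 1 of 5 at percentile 99 (0.649%). After trend removal they numbered 3 of 12 (0.89%). With the pair quantile-normalized alone they numbered 3 of 12 (0.895%), and with the mean of all rows 2 of 9 (1.59%). With no floor 1 was lower (background 8.47%), against 0 (0.809%). Between the arrays labelled activated, 0 higher and 0 lower (background 2.22% and 2.38%) became 2 and 4 with no floor (6.72% and 6.22%). At percentile 75 they became 1 and 1 (3.45% and 3.49%). From naive to labelled activated in wild type, 2 lower members (background 8.81%) became 10 with no floor (18.3%) and 4 at percentile 75 (13.2%). They became 0 at percentile 99 (8.51%), 1 after centring (5.75%) and 1 with the mean of all rows (7.85%). The 0 higher (14.5%) became 1 with no floor (18.4%). In miR-7 deficient mice 10 lower (background 14.8%) became 25 with no floor (18.1%), 20 at percentile 75 (15.5%) and 4 at percentile 99 (16.5%). The 0 higher (11.1%) became 1 with no floor (16.6%). A higher floor leaves fewer genes to count by construction; the cause of the other shifts was not tested. The setting of gene names without synonyms could change nothing, as 0 members were matched by synonym. Of values for single members, those of that setting included, 242 stayed within the spread between rows and 64 moved beyond it. Adar changed sign within that spread, from -0.12 to 0.05 after centring in the wild type activation comparison, and with the mean of all rows Oasl1, below the floor, went from 1.30 to -0.32 in the naive pair, which left 32 members higher and 5 lower. The row with the highest linear mean and the list without Mx1 and Mx2 were added after seeing the data. Signal over background limits the 24 members below every floor.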
